A study of Homo sapiens with 21 samples.

Results

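The numbered zinc finger (ZNF) genes of human chromosome 19 were examined across 21 RNA-seq libraries of MDA-MB-453 cells, an established human breast cancer line with luminal features. The genes were taken by rule: protein-coding, on chromosome 19, named ZNF with a number and at most 1 letter, and with a mean of at least 0.5 FPKM (fragments scaled to gene length and library size) over all libraries. The rule gave 177 genes of the 58735 in the deposited table, and 69 other chromosome 19 genes of that name pattern lay under the limit, 4 of them at 0 in every library. Each of the 7 groups had 3 libraries: untreated control cells, cells treated for 24 h with 10 mM calcium, with 10 μM cadmium, with 5 μM GSK4716 (an agonist of the estrogen-related receptor ESRRB) or with 10 μM DES (diethylstilbestrol, an antagonist of that receptor), and cells given DES 3 h before the same calcium or cadmium treatment. The medium held 1% CSS for cadmium and no serum for calcium or GSK4716, while the labels give a single untreated group, so agent and medium cannot be told apart.

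Proteins of this family bind DNA through arrays of C2H2 fingers, in which 2 cysteines and 2 histidines hold a zinc ion. Many of the chromosome 19 genes arose by repeated tandem duplication and lie in clusters. Many of their products carry a KRAB domain, which recruits the corepressor TRIM28 and, through it, the histone H3 lysine methyltransferase SETDB1 and HP1 proteins, and are best known for silencing transposable elements. Their transcripts are usually of low abundance. The remainder lack the KRAB domain.

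Libraries held between 14435925 and 28424805 fragments on genes. The luminal markers ERBB2, KRT8, KRT18, FOXA1, GATA3 and SPDEF were expressed, from 53.2 FPKM upward in every library. Of the other markers, VIM, KRT5, KRT14, PTPRC, CD3E, PECAM1, VWF and COL3A1 stayed under 0.70 FPKM in every library, whereas COL1A1, a fibroblast collagen, lay between 9.34 and 32.7 FPKM. Mitochondrial mRNAs took 6.83 ± 0.33% of fragments in control and 2.11 ± 0.37%, 2.36 ± 0.33% and 1.97 ± 1.43% (mean ± SD, n = 3) in the groups with DES alone, with added calcium and with added cadmium. Replicate 1 of DES with cadmium stood apart: its library size, as implied by the FPKM values, was 0.693 of its fragments on genes, against 0.862 to 1.15 in the 20 other libraries.

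The 177 genes were expressed at low levels, with mean values from 0.505 to 22.7 FPKM and a median of 1.504 FPKM. The median was 4.33 FPKM over all 14686 genes tested, 2.67 FPKM over 197 ZNF genes on other chromosomes and 12.1 FPKM over 651 other protein-coding genes of chromosome 19. A mean under 1 FPKM was found for 48 of the genes, 111 lay from 1 to under 5 FPKM and 18 at 5 FPKM or above. A gene and library had a median of 142 fragments. Just inside the limit were ZNF726 at 0.505 FPKM and ZNF814 at 0.525 FPKM, and just outside it ZNF599 at 0.495 FPKM and ZNF419 at 0.489 FPKM. For 8 of the 177 genes the mean fell under the limit when the libraries of some 1 group were left out. The group was cadmium for 4, control for 2, calcium for 2, DES for 2 and GSK4716 for 1, with some genes counted more than once.

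The 5 genes with the highest means were ZNF524 (22.7 FPKM), ZNF581 (20.5 FPKM), ZNF580 (20.3 FPKM), ZNF787 (15.2 FPKM) and ZNF296 (15.0 FPKM). ZNF524 binds telomeric repeats. None of these 5 matched a KRAB pattern in the predicted protein, their finger counts were 4, 4, 3, 7 and 6, and they did not respond alike. ZNF524 had 18.1, 18.6 and 29.9 FPKM in control, 22.8, 18.6 and 21.2 FPKM in DES, 18.6, 22.3 and 21.4 FPKM in DES with calcium and 29.9, 33.7 and 28.4 FPKM in DES with cadmium. Its DES and DES with calcium libraries lay within the range of control, and those of DES with cadmium, from 28.4 FPKM, reached past it. Over the 177 genes, the finger count of the predicted protein had a median of 12 and ran from 1 in ZNF428 to 31 in ZNF91. A KRAB pattern was matched in 145 of the proteins. The 32 without it had a median level of 4.37 FPKM, compared with 1.33 FPKM for the 145.

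Groups treated with DES, alone or with either metal, had lower median levels of the family than control, with no test of the median. The median over the 177 genes was 1.69 ± 0.11 FPKM in control (SD, n = 3), 1.54 ± 0.32 in calcium, 1.86 ± 0.13 in cadmium and 1.73 ± 0.18 in GSK4716. It was 1.27 ± 0.23 FPKM in DES, 0.919 ± 0.030 in DES with calcium and 0.844 ± 0.103 in DES with cadmium. The 6 libraries with DES and a metal, at 0.726 to 0.947 FPKM, lay below the 3 with DES alone, at 1.01, 1.42 and 1.37 FPKM, by this measure. The ranges of control, calcium, cadmium and GSK4716 overlapped one another, and 2 calcium libraries, at 1.31 and 1.41 FPKM, fell within the DES range. As a share of all fragments on genes, the family took 0.248 ± 0.012% in control, 0.195 ± 0.042% in DES, 0.137 ± 0.006% in DES with calcium and 0.142 ± 0.030% in DES with cadmium. By this share the groups overlapped, since DES replicate 1, at 0.147%, lay below replicates 2 and 3 of DES with cadmium, at 0.166% and 0.152%. The group with the highest mean was cadmium for 65 of the 177 genes, DES for 36, control for 29, GSK4716 for 19, calcium for 17, DES with cadmium for 10 and DES with calcium for 1. The group with the lowest mean was DES with cadmium for 72, DES with calcium for 50, calcium for 24, DES for 20, cadmium for 5, control for 4 and GSK4716 for 2. A group mean under 0.5 FPKM was found for 1 gene in control, 8 in calcium, 2 in cadmium, 2 in GSK4716, 17 in DES, 30 in DES with calcium and 46 in DES with cadmium. In such bulk libraries, fewer expressing cells and less RNA per cell cannot be told apart.

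**Figure D1:**
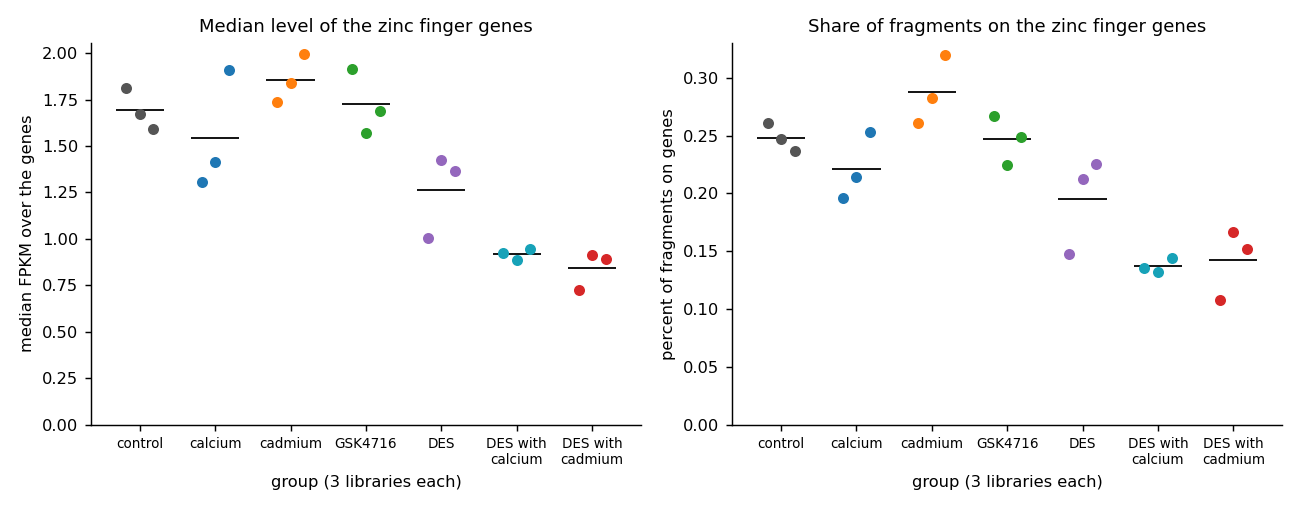
Each point is 1 library, the line is the mean of the 3 libraries of a group, and both vertical axes start at 0; the left panel gives the median FPKM over the 177 zinc finger genes and the right panel the percent of fragments on genes that fell on them. The libraries of DES with calcium and DES with cadmium lie at 0.726 to 0.947 FPKM in the left panel, below those of every other group, while in the right panel DES replicate 1 falls among those of DES with cadmium.

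Differences were tested in limma on log2(FPKM + 0.1) over all 14686 genes with Benjamini-Hochberg adjustment, and a gene was called at an adjusted p under 0.05. Fold changes on this scale understate those of low genes. Nothing in the labels states that the 3 libraries of a group came from separate cultures, so the p-values measure the spread between these libraries, which may be technical.

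In DES versus control, 33 of the 177 zinc finger genes were called lower, compared with 12.9% of all genes tested, and 13 were called higher, compared with 16.7%. The median log2 fold change was -0.39 for the 177 genes and 0.05 for all genes, and 121 of the 177 values were below 0. Without the 3 genes that met the limit of the rule only through the control or the DES libraries, 12 were called higher and 33 lower. Their median was then -0.40. All 3 DES libraries lay below all 3 control libraries for 77 of the 177 (22.9% of all genes) and above them for 24 (25.9%). ZNF genes on other chromosomes had a median of -0.36, with 41 of 197 called lower and 20 higher. The other chromosome 19 genes had a median of 0.19. The number of calls depended on single libraries: without control replicate 1, 11 of the 177 were called, without control replicate 2 it was 13, and without DES replicate 1 it was 60, with medians between -0.52 and -0.21 whichever library was left out. With libraries scaled by their total fragments, the split was 6 higher and 40 lower.

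In DES with calcium versus calcium, 43 of the 177 were called lower (16.5% of all genes) and 4 higher (18.5%). The median was -0.44, compared with -0.01 for all genes. Without the 2 genes that met the limit of the rule only through the calcium libraries, 42 were called lower and 4 higher, with a median of -0.43. The groups were apart, with DES with calcium lower, for 76 of the 177 (25.1% of all genes), and higher for 14 (25.7%). ZNF genes elsewhere in the genome had the same median of -0.44, with 40 of 197 called lower and 11 higher. Other chromosome 19 genes had a median of -0.03. Between 26 and 35 of the 177 were called whichever library was left out.

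In DES with cadmium versus cadmium, the median was lowest, at -1.07, compared with -0.08 for all genes, -0.58 for ZNF genes on other chromosomes and 0.40 for other chromosome 19 genes. Among ZNF genes on other chromosomes, 18 of 197 were called lower and 4 higher. Of the 177, 29 were called lower (5.13% of all genes) and 2 higher (4.76%), 147 had a value below 0, and 101 had groups apart in the lower direction (21.4% of all genes), with 10 apart in the higher direction (18.6%). Without the 4 genes that met the limit of the rule only through the cadmium libraries, 28 were called lower and 2 higher, with a median of -1.05. These calls rested on single libraries. None of the 177 was called without any 1 of the cadmium libraries or without replicate 3 of DES with cadmium, and none with a replicate block. Without replicate 1 of DES with cadmium, the library that stood apart, 17 were called lower and 2 higher, with a median of -0.88.

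These 3 comparisons share no library. The value was negative in all 3 for 104 of the 177 genes (58.8%) and positive in all 3 for 15 (8.47%), compared with 29.7% and 29.0% of all genes tested. These shares were 47.7% and 11.7% for ZNF genes on other chromosomes, and 21.4% and 39.3% for other chromosome 19 genes. Called lower in all 3 were 10 of the 177 (2.11% of all genes), and called higher in all 3 was 1 (1.78%). Each of these genes needs its call in the cadmium pair. No such call was left with the replicate block or without any 1 of the cadmium libraries. For 29 of the 177 genes, all 9 libraries with DES lay below all 12 without (4.59% of all genes), and for 1, ZNF581, all 9 lay above (4.14%). The first count was 18 of 197 for ZNF genes on other chromosomes and 16 of 651 for other chromosome 19 genes.

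ZNF607, at chr19:37696363-37719790 and with 18 fingers, was one of the genes called lower in all 3. It had 2.98, 2.62 and 2.77 FPKM in control, 2.76, 2.82 and 2.92 FPKM in calcium, 3.36, 2.8 and 1.51 FPKM in cadmium, 2.4, 2.85 and 2.56 FPKM in GSK4716, 0.438, 0.631 and 0.573 FPKM in DES, 0.598, 0.468 and 0.383 FPKM in DES with calcium and 0.472, 0.533 and 0.488 FPKM in DES with cadmium. The 12 libraries without DES lay between 1.51 and 3.36 FPKM and the 9 with DES between 0.383 and 0.631 FPKM. The log2 fold change was -2.17 ± 0.25 (SE, adjusted p = 0.00202) in DES versus control, -2.35 ± 0.28 (SE, adjusted p = 0.00271) in the calcium pair and -2.08 ± 0.40 (SE, adjusted p = 0.036) in the cadmium pair. In this gene, 18.1% of 100-base words are shared with other genes, so reads may be split between copies.

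ZNF382 (at chr19:36604817-36634113), a KRAB repressor described as a tumor suppressor that is often methylated in carcinomas, came first when these genes were ranked by the smallest of their 3 absolute log2 fold changes. Its values were 0.943, 0.841 and 0.968 FPKM in control, 0.823, 0.546 and 1.28 FPKM in calcium, 0.763, 0.73 and 1.28 FPKM in cadmium, 0.944, 1.14 and 1.03 FPKM in GSK4716, 0.105, 0.109 and 0.197 FPKM in DES, 0, 0.11 and 0.143 FPKM in DES with calcium and 0.104, 0.198 and 0.107 FPKM in DES with cadmium. A library of DES with calcium had 0 fragments, which allows up to 3, the highest with DES was at 0.198 FPKM, and the lowest without DES at 0.546 FPKM. The log2 fold changes were -2.12 ± 0.39 (SE, adjusted p = 0.00868), -2.44 ± 0.56 (SE, adjusted p = 0.0176) and -2.10 ± 0.45 (SE, adjusted p = 0.0411) in the control, calcium and cadmium pairs. The level of ZNF382 was under 1 FPKM on average, so these values rest on few fragments.

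ZNF175, also known as OTK18 and described in macrophages as a suppressor of HIV replication, lies at chr19:51571298-51592508 and overlaps no other gene of the table. It had 3.36, 4.74 and 2.47 FPKM in control, 2.4, 3.2 and 2.29 FPKM in calcium, 5.43, 3.21 and 3.54 FPKM in cadmium, 2.51, 2.23 and 1.9 FPKM in GSK4716, 1.04, 0.823 and 0.653 FPKM in DES, 0.874, 0.531 and 0.614 FPKM in DES with calcium and 0.807, 0.77 and 0.73 FPKM in DES with cadmium. The libraries with DES were all at or under 1.04 FPKM, and the others at or above 1.90 FPKM. The log2 fold change was -1.92 ± 0.31 (SE, adjusted p = 0.0061) without a metal, -1.83 ± 0.30 (SE, adjusted p = 0.0062) with calcium and -2.22 ± 0.33 (SE, adjusted p = 0.0301) with cadmium.

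ZNF253 (at chr19:19865886-19894674) had 3.69, 3.12 and 2.37 FPKM in control, 0.488, 0.692 and 0.782 FPKM in DES, 0.459, 0.433 and 0.806 FPKM in DES with calcium and 0.309, 0.637 and 0.516 FPKM in DES with cadmium, with log2 fold changes of -2.07, -1.82 and -2.27 in the control, calcium and cadmium pairs. ZNF302 (at chr19:34677639-34686397), the highest of these 10 genes in control, had 5.55, 5.81 and 3.82 FPKM in control, 0.905, 1.51 and 1.37 FPKM in DES, 1.95, 1.32 and 1.69 FPKM in DES with calcium and 0.914, 1.59 and 0.963 FPKM in DES with cadmium, and its changes were -1.93, -1.44 and -1.65. ZNF562 (at chr19:9641808-9675086) had 1.82, 2.12 and 1.82 FPKM in control, 0.636, 0.612 and 0.65 FPKM in DES, 0.904, 0.75 and 0.609 FPKM in DES with calcium and 0.497, 0.721 and 0.809 FPKM in DES with cadmium and changed by -1.46, -1.73 and -2.05. For all 3 genes the 9 libraries with DES lay below the 12 without. ZNF8, whose product interacts with SMAD proteins of BMP signaling, had 0.803, 0.788 and 1.05 FPKM in control, 0.208, 0.292 and 0.258 FPKM in DES, 0.121, 0.137 and 0.277 FPKM in DES with calcium and 0.109, 0.308 and 0.157 FPKM in DES with cadmium and changed by -1.47, -2.12 and -2.27. ZNF440 had values of -1.30, -1.98 and -1.86, and ZNF780A values of -1.73, -1.59 and -2.84, with adjusted p of 0.0496 in the first comparison for ZNF780A. The DES libraries of ZNF780A were spread, at 0.111, 0.502 and 0.712 FPKM. Under the alternatives given below, ZNF440 and ZNF780A each lost the call in 6 refits of DES versus control and in 7 of the calcium pair.

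ZNF587 was the remaining gene called lower in all 3. ZNF587 and its near copy ZNF417 encode KRAB proteins known to silence HERV-K retroviral elements. ZNF587 had 2.67, 2.04 and 2.65 FPKM in control, 2.8, 2.78 and 4.04 FPKM in calcium, 2.83, 3.54 and 3.86 FPKM in cadmium, 2.91, 2.25 and 3.04 FPKM in GSK4716, 1.06, 1.42 and 1.31 FPKM in DES, 0.997, 1.06 and 1.42 FPKM in DES with calcium and 0.939, 0.913 and 0.959 FPKM in DES with cadmium, and changed by -0.91 ± 0.24 (SE, adjusted p = 0.029), -1.39 ± 0.27 (SE, adjusted p = 0.0108) and -1.75 ± 0.29 (SE, adjusted p = 0.0313) in the control, calcium and cadmium pairs. ZNF417 had 1.81, 1.23 and 1.18 FPKM in control, 0.568, 1.49 and 0.948 FPKM in DES, 0.571, 0.539 and 0.417 FPKM in DES with calcium and 0.414, 0.686 and 0.406 FPKM in DES with cadmium. Its DES and control libraries overlapped, with a change of -0.52 ± 0.38 (SE, adjusted p = 0.337), while it was called lower in the calcium pair at -1.41 ± 0.32 (SE, adjusted p = 0.0165) and in the cadmium pair at -1.60 ± 0.36 (SE, adjusted p = 0.0439). Shared 100-base words made up 14.7% of ZNF587 and 23.5% of ZNF417.

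ZNF581 was the only gene of the 177 called higher in all 3. It encodes a short protein in which 4 fingers and no KRAB pattern were found. Its values were 10.6, 8.02 and 16.1 FPKM in control, 12.8, 9.29 and 9.34 FPKM in calcium, 12.8, 9.83 and 10.0 FPKM in cadmium, 14.3, 13.5 and 19.7 FPKM in GSK4716, 42.9, 40.3 and 31.9 FPKM in DES, 22.3, 37.5 and 25.5 FPKM in DES with calcium and 37, 22 and 25.1 FPKM in DES with cadmium, so that every library with DES exceeded every library without it. The log2 fold change was 1.77 ± 0.27 (SE, adjusted p = 0.00495) in DES versus control, 1.41 ± 0.24 (SE, adjusted p = 0.00674) with calcium and 1.33 ± 0.26 (SE, adjusted p = 0.0375) with cadmium. ZNF581, at chr19:55635459-55645622, overlaps ZNF580, at chr19:55635016-55643469, on the same strand, so fragments of the shared stretch cannot be assigned with certainty. ZNF580 itself had 18.3, 13.7 and 21.8 FPKM in control, 24.2, 18.3 and 22.3 FPKM in DES, 12.2, 16.8 and 20.5 FPKM in DES with calcium and 42.8, 29.2 and 30.6 FPKM in DES with cadmium, and its change in DES versus control was 0.28 ± 0.21 (SE, adjusted p = 0.334), with overlapping libraries.

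**Figure D2:**
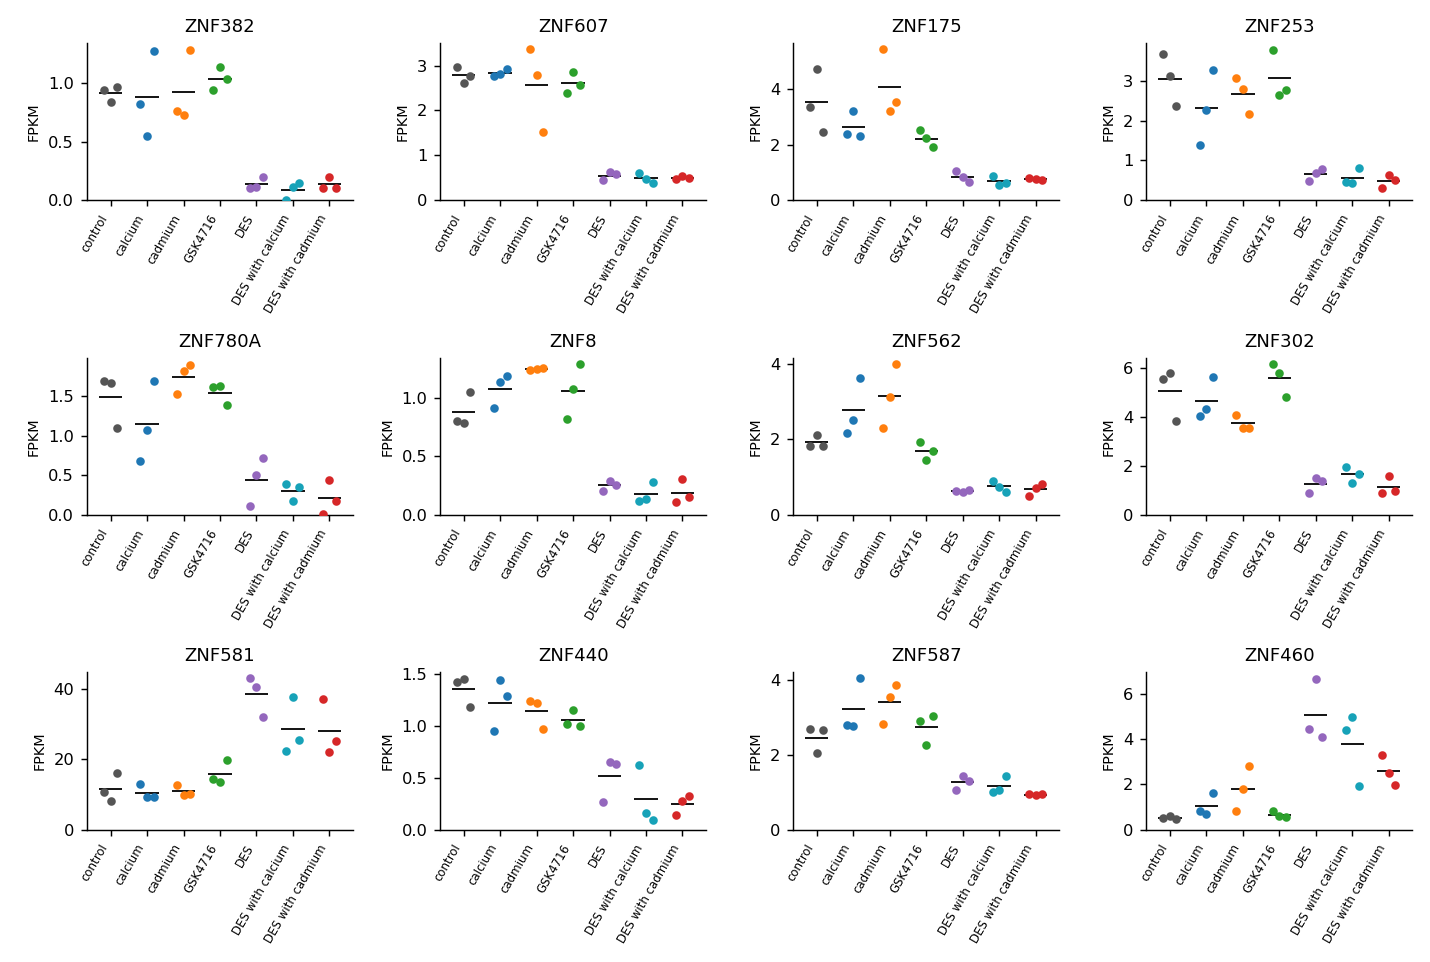
FPKM in each of the 21 libraries (points; the line is the mean of 3) for the 10 genes called lower and ZNF581, called higher, in all 3 comparisons of DES with its matching group, and for ZNF460; each panel has its own vertical axis starting at 0. In ZNF607 the 9 libraries with DES lie at 0.383 to 0.631 FPKM against 1.51 to 3.36 FPKM in the others, and in ZNF581 the order is the opposite.

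Some genes rose with DES without doing so in all 3 comparisons. ZNF460, a KRAB gene at chr19:57280051-57293569 with 11 fingers, had the largest rise in DES versus control. It had 0.512, 0.621 and 0.466 FPKM in control, 0.844, 0.685 and 1.61 FPKM in calcium, 0.816, 1.8 and 2.81 FPKM in cadmium, 0.806, 0.611 and 0.575 FPKM in GSK4716, 4.44, 6.64 and 4.08 FPKM in DES, 4.41, 4.98 and 1.94 FPKM in DES with calcium and 3.3, 2.51 and 2 FPKM in DES with cadmium. Control and GSK4716 were lowest, cadmium alone lay in between, and DES alone was highest, with no overlap between DES and any group without DES. The log2 fold change was 3.00 ± 0.27 (SE, adjusted p = 0.000958) in DES versus control, 1.74 ± 0.46 (SE, adjusted p = 0.0285) with calcium and 0.63 ± 0.49 (SE, adjusted p = 0.405) with cadmium, where the groups overlapped. ZNF442 had 0.363, 0.159 and 0.193 FPKM in control, 1.59, 1.95 and 4.3 FPKM in DES and 0.256, 0.538 and 0.511 FPKM in DES with cadmium. Without its DES libraries its mean was 0.432 FPKM, under the limit of the rule, so it is among the 177 only through the group in which it was highest. No test is given for it, although the counts over the 177 include it. This gene was named after its values were seen. ZNF428, whose predicted protein has 1 finger, rose by 0.95 ± 0.21 (SE, adjusted p = 0.0159) in DES with calcium versus calcium. ZNF358, among the GC-rich members without a KRAB pattern, rose by 1.62 ± 0.24 (SE, adjusted p = 0.0298) in DES with cadmium versus cadmium, where it had 5.58, 5.73 and 7.47 FPKM in cadmium and 15.7, 21.9 and 20.7 FPKM in DES with cadmium, whereas its control and DES values were 12.2, 8.21 and 18 FPKM in control and 12, 10.4 and 16.5 FPKM in DES and overlapped.

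The other genes named for the largest falls were ZNF700, ZNF264, ZNF234 and ZNF836. ZNF700 fell to 0.226, 0.708 and 0.564 FPKM in DES from 2.97, 2.94 and 2.21 FPKM in control, a change of -2.31 ± 0.39 (SE, adjusted p = 0.007). ZNF264 was called lower in the calcium pair, at -2.08 ± 0.34 (SE, adjusted p = 0.00631), with 1.9, 1.49 and 2.7 FPKM in calcium and 0.329, 0.476 and 0.378 FPKM in DES with calcium. ZNF234 and ZNF836 were called lower in the cadmium pair, at -2.70 ± 0.44 (SE, adjusted p = 0.0307) and -2.60 ± 0.47 (SE, adjusted p = 0.033), and in DES versus control had values of -1.23 ± 0.41 (SE, adjusted p = 0.0592) and -0.39 ± 0.33 (SE, adjusted p = 0.403). ZNF836 had 1.04, 0.714 and 1.33 FPKM in control, 1.61, 2.34 and 2.49 FPKM in cadmium, 0.604, 0.843 and 0.796 FPKM in DES and 0.117, 0.34 and 0.402 FPKM in DES with cadmium, where cadmium alone was highest and DES with cadmium lowest.

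Among genes with known targets, ZNF91 and ZNF93 encode KRAB repressors of SVA and L1 retrotransposons. ZNF91 had 1.24, 1.35 and 0.995 FPKM in control, 1.21, 1.95 and 3.46 FPKM in calcium, 1.32, 2.67 and 4.87 FPKM in cadmium, 1.16, 0.943 and 1.59 FPKM in GSK4716, 0.361, 0.632 and 0.557 FPKM in DES, 0.575, 0.769 and 0.574 FPKM in DES with calcium and 0.0538, 1.17 and 0.44 FPKM in DES with cadmium. Its change was -1.09 ± 0.32 (SE, adjusted p = 0.0432) in DES versus control, -1.53 ± 0.42 (SE, adjusted p = 0.0312) in the calcium pair and -2.51 ± 0.86 (SE, adjusted p = 0.102) in the cadmium pair, where 1 library of DES with cadmium at 0.0538 FPKM and another at 1.17 FPKM gave a wide error. ZNF93 had 2.84, 3.39 and 1.81 FPKM in control, 0.634, 1.14 and 2.01 FPKM in calcium, 2.73, 3.12 and 0.589 FPKM in cadmium, 2.29, 1.6 and 1.78 FPKM in GSK4716, 0.951, 1.22 and 1.33 FPKM in DES, 1.46, 1.45 and 1.97 FPKM in DES with calcium and 0.513, 0.362 and 1.16 FPKM in DES with cadmium. It was called lower in DES versus control, at -1.10 ± 0.30 (SE, adjusted p = 0.0315), whereas in DES with calcium versus calcium it had a positive value of 0.46 ± 0.43 (SE, adjusted p = 0.431). ZNF274 protein binds the ends of ZNF genes themselves and recruits SETDB1 there. Its transcript had 5.93, 5.41 and 6.33 FPKM in control, 9.33, 8.73 and 8.98 FPKM in calcium, 5.21, 6.29 and 14 FPKM in cadmium, 6.65, 5.2 and 8.17 FPKM in GSK4716, 3.14, 3.15 and 3.72 FPKM in DES, 4.26, 2.32 and 2.56 FPKM in DES with calcium and 2.78, 5.06 and 2.94 FPKM in DES with cadmium. Calcium was above control without overlap, at 0.61 ± 0.12 (SE, adjusted p = 0.0387), and DES was below it, at -0.80 ± 0.17 (SE, adjusted p = 0.0142). In DES with calcium versus calcium ZNF274 was called lower at -1.58 ± 0.25 (SE, adjusted p = 0.00571), while the cadmium pair gave -1.13 ± 0.45 (SE, adjusted p = 0.137), with 1 cadmium library at 14 FPKM. ZNF808, a KRAB gene needed for human pancreas development, had 1.28, 1.61 and 1.38 FPKM in control, 0.591, 0.81 and 0.711 FPKM in DES, 0.467, 0.969 and 0.674 FPKM in DES with calcium and 0.348, 1.11 and 0.418 FPKM in DES with cadmium and a change of -0.92 ± 0.27 (SE, adjusted p = 0.041) in DES versus control. ZNF224, a repressor of the aldolase A gene, had 1.66, 1.54 and 1.29 FPKM in control, 0.348, 1.53 and 1.38 FPKM in DES, 1.11, 0.748 and 1.13 FPKM in DES with calcium and 0.21, 1.71 and 0.713 FPKM in DES with cadmium and was called in none of these 3 comparisons, with values of -0.63, -0.94 and -1.50.

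Treatment with calcium, cadmium or GSK4716 alone gave almost no calls in the family. In calcium versus control, ZNF274 was the 1 gene called higher (4.6% of all genes tested) and 0 were called lower (2.53%), with 7 higher (13.2% of all genes) and 18 lower (10.3%) at an unadjusted p under 0.05. The median was -0.14, compared with -0.01 for all genes and -0.18 for ZNF genes on other chromosomes. The call of ZNF274 was lost whichever of the 6 libraries was left out, with the replicate block, with no filter on low values, with total fragments and with all 7 groups in one fit. Limma-voom on fragments recovered from the FPKM values called 3 genes higher and 4 lower. In cadmium versus control, limma called 0 of the 177, beside 0.129% of all genes called higher and 0.0204% called lower. At an unadjusted p under 0.05, 25 of the 177 were higher (13.6% of all genes) and 8 lower (12.4%), with a median of 0.07 beside 0.04 for all genes, limma-voom called 3 higher, and without cadmium replicate 1 limma called 9. In GSK4716 versus control, 0 were called by either tool, as over all genes (0.0% in each direction), with 3 higher (7.68% of all genes) and 6 lower (8.69%) at an unadjusted p under 0.05 and a median of 0.04.

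When calcium or cadmium was added to DES, 128 and 141 of the 177 values were below 0, and no gene was called. In DES with calcium versus DES, limma and limma-voom called 0 of the 177, beside 0.0% of all genes called higher and 0.136% called lower. At an unadjusted p under 0.05, 33 of the 177 were lower (8.71% of all genes) and 1 was higher (4.51%). The median was -0.34, compared with 0.00 for all genes, and the groups were apart in the lower direction for 47 of the 177 (12.1% of all genes) and in the higher for 3 (7.84%). In DES with cadmium versus DES, both tools also called 0, beside 0.0272% of all genes called higher and 0.238% called lower, with 32 lower (8.03% of all genes) and 2 higher (2.36%) at an unadjusted p under 0.05. The median was -0.43, compared with -0.04 for all genes, with groups apart in the lower direction for 49 of the 177 (10.9% of all genes) and in the higher for 7 (5.38%). In the 2 comparisons, ZNF genes on other chromosomes had medians of -0.25 and -0.26. Their groups were apart in the lower direction for 41 and 36 of 197. Other chromosome 19 genes had medians of -0.12 and 0.21. These 2 comparisons share the DES libraries, 1 of which, replicate 1, was itself low at 1.01 FPKM over the family. With all 7 groups in one fit, 5 of the 177 were called lower with calcium added (1.03% of all genes in that fit) and 14 with cadmium added (3.51%), and 0 were called higher (0.102% and 0.599%).

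The interaction terms compared the effect of a metal with and without DES. For calcium, 0 of the 177 were called in limma, beside 3.63% of all genes, with 4 higher (7.63% of all genes) and 17 lower (12.3%) at an unadjusted p under 0.05, and limma-voom called 1. For cadmium, 1 of the 177 was called, beside 1.18% of all genes, and 42 were lower (11.6% of all genes) and 4 higher (6.91%) at an unadjusted p under 0.05. The median over the 177 was -0.57, compared with -0.09 for all genes. It was -0.27 for ZNF genes on other chromosomes and 0.28 for other chromosome 19 genes. The gene called was ZNF333, at chr19:14689801-14733746, with 10 fingers. It had 0.509, 0.554 and 0.688 FPKM in control, 1.36, 1.97 and 2.79 FPKM in cadmium, 1.57, 1.82 and 2.26 FPKM in DES and 0.755, 1.37 and 0.802 FPKM in DES with cadmium. Cadmium alone and DES alone were each above control without overlap, at 1.60 ± 0.31 (SE, adjusted p = 0.0697) and 1.53 ± 0.28 (SE, adjusted p = 0.00871), whereas both together were at or below 1.37 FPKM. The interaction was -2.51 ± 0.48 (SE, adjusted p = 0.0361) on the log2 scale. With the replicate block, 1 of the 177 was called higher (0.477% of all genes) and 3 lower (1.5%) for this interaction.

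Along the chromosome, the 177 genes fell into 16 clusters when a gap of at least 1 Mb between neighbouring gene starts ended a cluster. The 7 clusters of 5 or more genes held 158 of the genes, from 11 to 46 each, and the clusters ranked here are these 7 alone. In DES versus control, DES with calcium versus calcium and DES with cadmium versus cadmium, all 7 cluster medians were below 0, and they were from -0.70 to -0.18, from -0.91 to -0.22 and from -1.24 to -0.61. All 7 were also below 0 in calcium versus control, from -0.34 to -0.02, and in both comparisons of DES and a metal with DES, whereas 3 were below 0 in cadmium versus control, from -0.13 to 0.24, and 2 in GSK4716 versus control, from -0.17 to 0.09.

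The cluster from ZNF175 to ZNF331 (chr19:51571298-53580269, 30 genes, 29 with a KRAB pattern) had the lowest medians of the 7 with DES alone, at -0.70, and in the calcium pair, at -0.91. In this cluster 26, 27 and all 30 of the genes had a negative value in the control, calcium and cadmium pairs, 8, 8 and 3 were called lower (12.9%, 16.5% and 5.13% of all genes) and 0 were called higher (16.7%, 18.5% and 4.76%), and for 7 all libraries with DES were below all without (4.59%). ZNF808 and ZNF836 are in this cluster. So is ZNF320, which met the limit of the rule only through the calcium libraries. Without ZNF320, 26 of the other 29 genes were negative in the calcium pair and 7 were called lower, with a median of -0.90. The cluster from ZNF628 to ZNF446 next to the end of the long arm (chr19:55476332-58481230, 46 genes, 32 with a KRAB pattern) had the median nearest 0 of the 7 with DES alone, at -0.18, and in the cadmium pair, at -0.61. In DES versus control, 4 of its genes were called higher and 6 lower (16.7% and 12.9% of all genes), among them ZNF581 and ZNF460 higher and ZNF274, ZNF587 and ZNF8 lower. In the calcium pair 2 were called higher and 14 lower (18.5% and 16.5%), and in the cadmium pair 1 was called higher and 7 lower (4.76% and 5.13%). The gene-dense start of this cluster includes ZNF524, ZNF580 and ZNF581, which have short, GC-rich transcripts.

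On the short arm, the cluster from ZNF101 to ZNF43 (chr19:19668796-21852125, 19 genes) had the most AT-rich transcripts of the 7, with a median GC content of 37.2%. Its medians were -0.64 with DES alone, -0.22 in the calcium pair and -1.13 in the cadmium pair. The calcium pair gave 12 of 19 negative values and the cadmium pair 18 of 19. Calcium alone gave this cluster the lowest median of the 7, at -0.34, with no gene called. The cluster from ZNF565 to ZNF607 (chr19:36182060-37719790, 20 genes) had the lowest median of the 7 in the cadmium pair, at -1.24, with all 20 values below 0, and medians of -0.38 in both other pairs. Of its 20 genes, 3 (ZNF566, ZNF585A and ZNF850) met the limit of the rule only through the cadmium libraries, and the other 17 had a median of -1.21 in the cadmium pair. The cluster from ZNF575 to ZNF296 (chr19:43525497-45076588, 19 genes) had medians of -0.31, -0.25 and -1.18 in the control, calcium and cadmium pairs. It held 4 genes called higher and 2 called lower in DES versus control (16.7% and 12.9% of all genes), 1 and 3 in the calcium pair (18.5% and 16.5%) and 0 and 3 in the cadmium pair (4.76% and 5.13%). Over the 52 genes of the short arm the medians were -0.42, -0.33 and -1.16, and over the 125 of the long arm -0.39, -0.50 and -1.03, in the control, calcium and cadmium pairs.

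**Figure D3:**
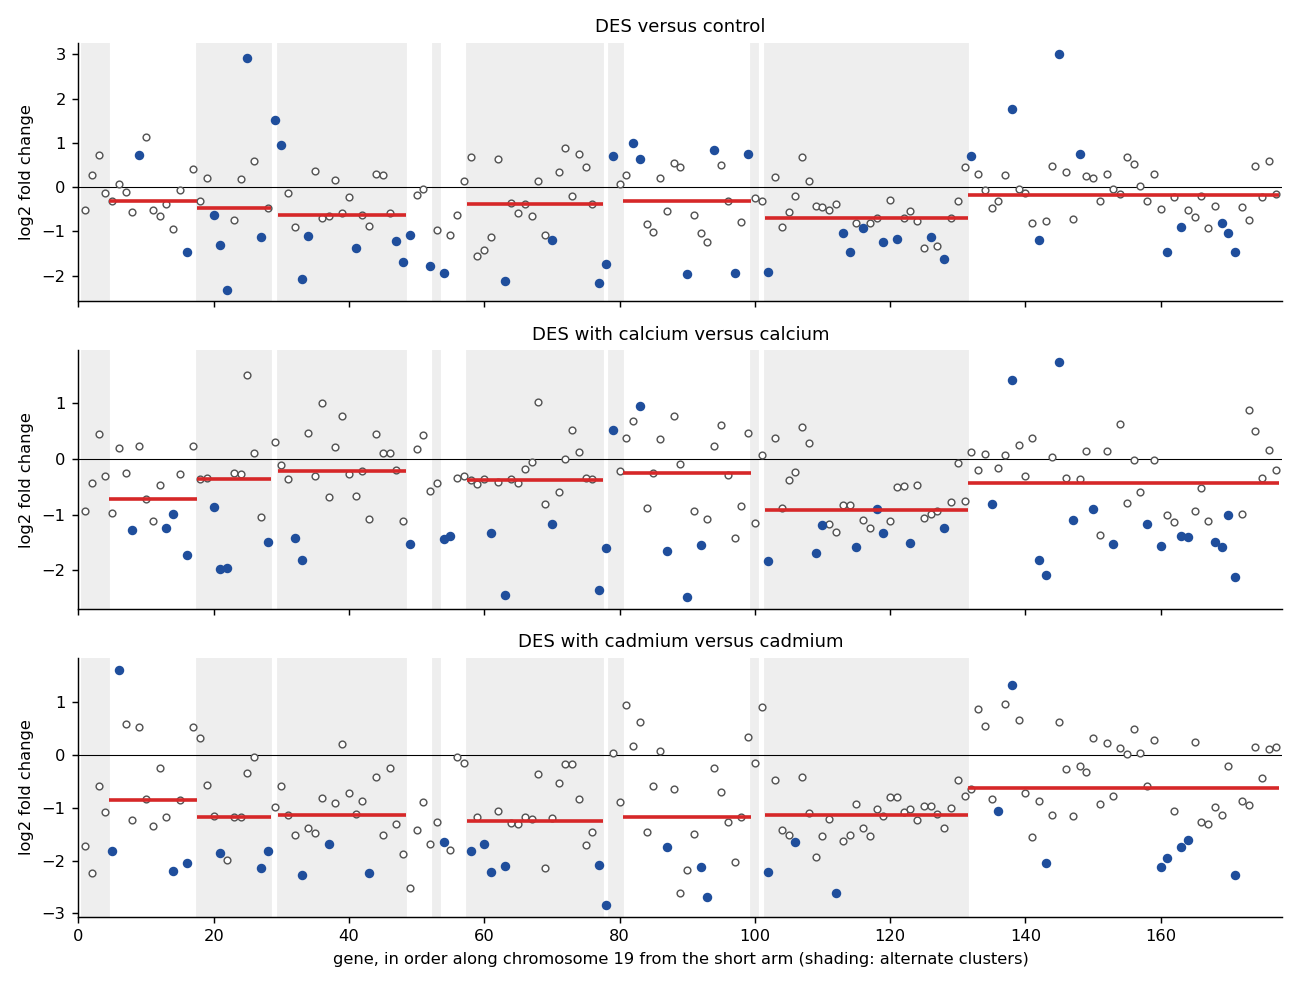
Log2 fold change of each of the 177 genes in order along chromosome 19, in the 3 comparisons of DES with its matching group; filled points were called at an adjusted p under 0.05, open points were not, shading marks alternate clusters and red lines the medians of the 7 clusters of 5 or more genes. All red lines lie below 0, from -0.70 to -0.18 in the top panel, from -0.91 to -0.22 in the middle one and from -1.24 to -0.61 in the bottom one.

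**Figure D4:**
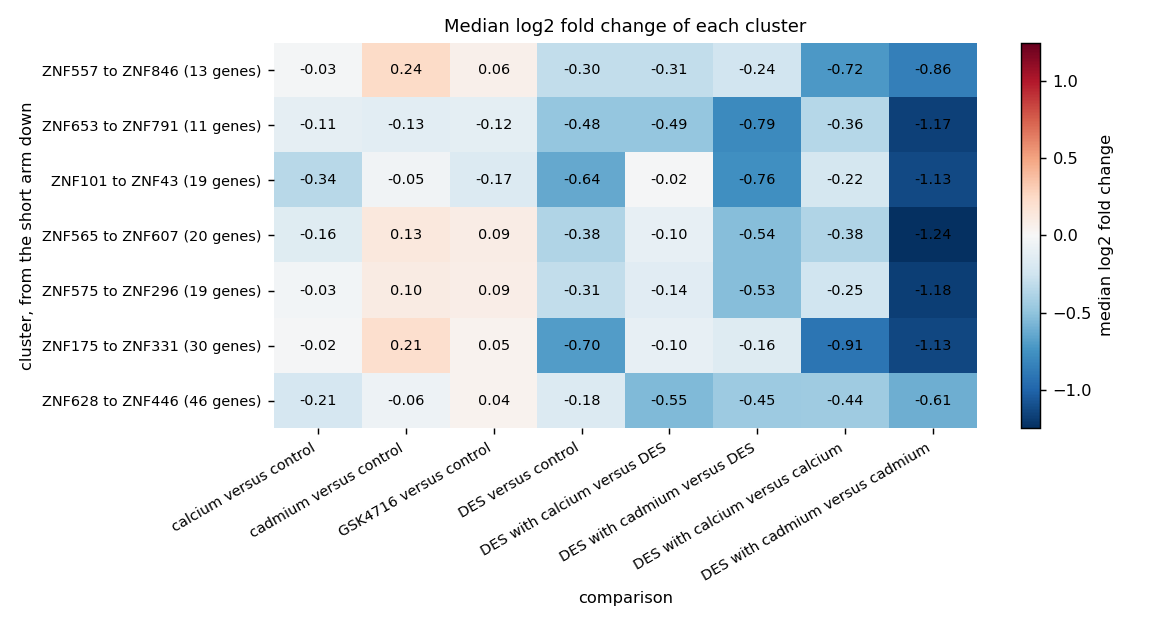
Median log2 fold change of the genes of each of the 7 clusters of 5 or more genes (rows, in order along the chromosome) in the 8 comparisons (columns), printed in each cell and coloured from blue (negative) to red (positive). The lowest value is -1.24 for the cluster from ZNF565 to ZNF607 in DES with cadmium versus cadmium.

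The values with DES were also compared by the make-up of the genes, as a description. For the 145 genes with a KRAB pattern, the medians were -0.51, -0.57 and -1.16 in the control, calcium and cadmium pairs, and for the 32 without it -0.13, -0.20 and -0.31. In DES versus control, 32 of the 33 genes called lower had the pattern, as did 6 of the 13 called higher. The 13 include ZNF442, which met the limit of the rule only through the DES libraries. The 2 classes also differ in base composition and level, with a median transcript GC content of 41.9% and 62.4%. For 126 genes with under 45% GC the medians were -0.57, -0.63 and -1.18, for 27 genes of 45 to 55% they were -0.24, -0.52 and -0.58, and for 24 genes above 55% they were 0.01, 0.08 and 0.16. Across the 177 genes, Spearman's rho of the log2 fold change with GC content was 0.34, 0.10 and 0.42 in the 3 pairs, as a description over genes measured in the same libraries. Across all genes tested it was 0.05, -0.13 and 0.24. Other genes of the table with under 45% GC and a mean of 0.5 to 5 FPKM, 3040 in number, had medians of -0.10, -0.00 and -0.58, compared with -0.57, -0.59 and -1.19 for the 123 zinc finger genes in the same range. The part of base composition, level and mitochondrial content in these values was not tested. Of the 177 genes, 126 overlap another gene of the table and 73 share at least one 100-base word with another gene. The 34 with neither had medians of -0.31, -0.37 and -0.94. Among the genes whose responses to DES are given one by one above, ZNF175, ZNF302, ZNF440, ZNF442, ZNF264, ZNF234 and ZNF274 overlap no other gene, and the values of the others are uncertain where fragments could belong to either gene.

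**Figure D5:**
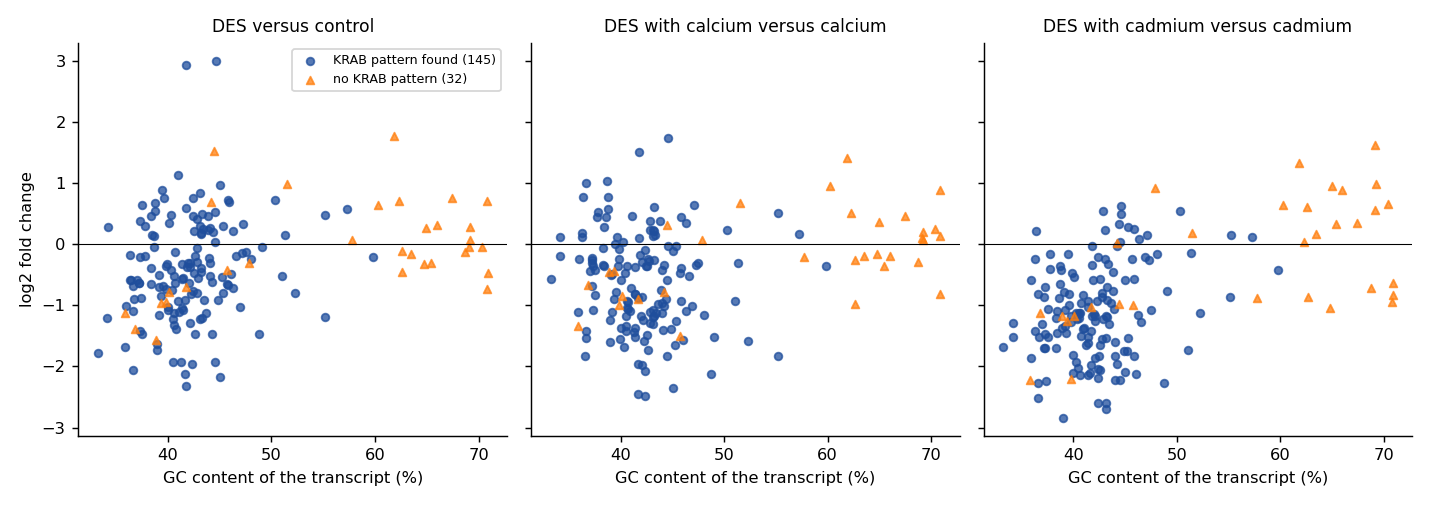
Log2 fold change of each of the 177 genes against the GC content of its transcript in the 3 comparisons of DES with its matching group, with circles for the 145 genes in which a KRAB pattern was found and triangles for the 32 in which it was not. The genes above 55% GC are mostly triangles and have medians of 0.01, 0.08 and 0.16, and the genes under 45% GC have medians of -0.57, -0.63 and -1.18.

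The promoters of 158 of the 177 genes were found in RefSeq (GRCh38.p14), each with 250 bases before and 50 after the transcript start, and were searched on both strands. The letters CCGGAAGT, a core of ETS factor sites, were in 34 of the 158 (21.5%), compared with 15.7% of promoters of ZNF genes on other chromosomes, 9.82% of those of coding genes tested and 4.44% of all promoters in the table. The letters AAGATGGC of the factor YY1 were in 13 (8.23%, compared with 3.61%, 5.96% and 3.03% in the same order), and the metal response core TGCGCNC, bound by the zinc-sensing factor MTF1, was in 51 (32.3%, compared with 26.5%, 32.04% and 19.97%). The letters GCATGCGC of NRF1 were in 7 (4.43%, compared with 7.83%, 6.03% and 3.27%), TTTCCCGC of E2F in 2 (1.27%, compared with 3.01%, 2.75% and 1.66%), TGACGTCA of CREB in 6 (3.80%, compared with 3.61%, 3.44% and 1.98%) and TTCNNGAA of heat shock factors in 10 (6.33%, compared with 4.82%, 5.86% and 7.84%). The NRF1 letters end with the letters that begin the metal response core, so both can mark the same bases. The extended core site of the estrogen-related receptors, TNAAGGTCA, was in 4 (2.53%, compared with 0%, 0.444% and 0.963%), the promoters of ZNF320, ZNF527, ZNF808 and ZNF836. In DES versus control their log2 fold changes were -0.55, 0.89, -0.92 and -0.39, of which that of ZNF808 was called. GSK4716 gave -0.27, 0.16, 0.16 and 0.58, with none called. The 34 genes with the ETS letters had medians of -0.32, -0.80 and -1.10 in the control, calcium and cadmium pairs, and the 124 genes without them had -0.40, -0.36 and -1.04.

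The 250 bases before the start are shown for 4 genes that hold the ETS letters and moved in both directions, to let their surroundings be compared. They are written 5′ to 3′ on the gene's strand in lower case, with capitals for the ETS letters alone, read on either strand, and positions are those of GRCh38.p14. ZNF175 (chr19:51571033-51571282, plus strand), ZNF587 (chr19:57849609-57849858, plus strand) and ZNF274 (chr19:58182811-58183060, plus strand) were called lower in DES versus control, and ZNF460 (chr19:57279732-57279981, plus strand) was called higher.
ZNF175: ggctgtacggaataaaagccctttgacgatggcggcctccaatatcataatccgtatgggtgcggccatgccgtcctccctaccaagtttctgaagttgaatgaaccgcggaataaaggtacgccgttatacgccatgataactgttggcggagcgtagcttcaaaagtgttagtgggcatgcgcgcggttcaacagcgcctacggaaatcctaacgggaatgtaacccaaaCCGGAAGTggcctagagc
ZNF587: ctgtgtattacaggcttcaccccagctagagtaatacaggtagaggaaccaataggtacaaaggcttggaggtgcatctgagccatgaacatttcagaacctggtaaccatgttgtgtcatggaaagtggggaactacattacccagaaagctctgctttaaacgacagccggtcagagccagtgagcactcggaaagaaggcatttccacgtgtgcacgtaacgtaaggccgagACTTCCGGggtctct
ZNF274: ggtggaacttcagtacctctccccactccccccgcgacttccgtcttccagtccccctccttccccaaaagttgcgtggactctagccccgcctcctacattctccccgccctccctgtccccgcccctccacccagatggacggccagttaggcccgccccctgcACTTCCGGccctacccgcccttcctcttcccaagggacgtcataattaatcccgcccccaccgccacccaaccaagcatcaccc
ZNF460: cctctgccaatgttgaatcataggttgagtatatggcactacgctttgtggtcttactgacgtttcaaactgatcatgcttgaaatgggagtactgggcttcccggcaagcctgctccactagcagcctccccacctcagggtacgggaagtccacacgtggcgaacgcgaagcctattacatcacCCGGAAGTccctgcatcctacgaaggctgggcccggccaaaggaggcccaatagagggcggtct

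The 2 promoters with the core site of the estrogen-related receptors within these 250 bases, ZNF527 (chr19:37370849-37371098, plus strand) and ZNF836 (chr19:52171622-52171871, minus strand), are shown because GSK4716 and DES are ligands of such a receptor. In both, capitals mark that site alone.
ZNF527: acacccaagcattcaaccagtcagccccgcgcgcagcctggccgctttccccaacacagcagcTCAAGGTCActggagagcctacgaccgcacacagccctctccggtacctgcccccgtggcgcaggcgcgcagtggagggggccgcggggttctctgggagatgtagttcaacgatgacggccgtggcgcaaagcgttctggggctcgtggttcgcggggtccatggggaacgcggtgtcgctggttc
ZNF836: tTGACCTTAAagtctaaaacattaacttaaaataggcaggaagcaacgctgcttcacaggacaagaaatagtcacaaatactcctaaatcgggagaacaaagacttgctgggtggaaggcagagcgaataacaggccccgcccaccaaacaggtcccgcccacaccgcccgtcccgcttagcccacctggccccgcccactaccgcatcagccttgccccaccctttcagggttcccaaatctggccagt
ZNF527 had 0.808, 0.581 and 0.978 FPKM in control, 1.05, 0.761 and 0.841 FPKM in GSK4716, 1.1, 1.77 and 1.79 FPKM in DES and 0.698, 0.819 and 1.12 FPKM in DES with calcium, where DES was above control without overlap but was not called, at 0.89 ± 0.32 (SE, adjusted p = 0.0775). For ZNF836 the DES libraries overlapped those of control, as given above.

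Corepressors of the KRAB proteins did not move as one group. All 18 genes of the list were tested. In DES versus control 1 was called higher (16.7% of all genes) and 5 lower (12.9%). In DES with calcium versus calcium 4 were called higher (18.5%) and 1 lower (16.5%), and in calcium versus control 3, CBX5, DNMT1 and UHRF1, were called lower (2.53%). Limma called 0 in cadmium versus control, in GSK4716 versus control, in both comparisons of DES and a metal with DES, and in DES with cadmium versus cadmium. TRIM28, the corepressor that KRAB domains bind, was at 104 ± 3.74 FPKM in control (SD, n = 3), 73.6 ± 18.9 in DES, 53.6 ± 9.53 in DES with calcium and 98.6 ± 19.4 in DES with cadmium, with changes of -0.53 ± 0.21 (SE, adjusted p = 0.104), -0.54 ± 0.21 (SE, adjusted p = 0.0896) and 0.37 ± 0.24 (SE, adjusted p = 0.331) in the control, calcium and cadmium pairs. SETDB1, the methyltransferase, was at 7.87 ± 0.123 FPKM in control and 6.26 ± 0.232 in DES, a change of -0.33 ± 0.14 (SE, adjusted p = 0.118). The HP1 genes differed from one another. CBX5 (HP1 alpha) was called lower in DES versus control, at -2.03 ± 0.23 (SE, adjusted p = 0.00188), from 21.4 ± 1.21 to 5.32 ± 1.53 FPKM, whereas CBX1 (HP1 beta) was called higher, at 0.68 ± 0.15 (SE, adjusted p = 0.0154). TASOR, a subunit of the HUSH silencing complex, was called lower at -1.41 ± 0.22 (SE, adjusted p = 0.00512), and SMARCAD1 and MORC2, chromatin remodelers that act with these silencing complexes, at -1.28 ± 0.33 (SE, adjusted p = 0.028) and -0.50 ± 0.14 (SE, adjusted p = 0.0367). UHRF1, which recruits the maintenance methyltransferase DNMT1, was called lower in DES versus control, at -0.98 ± 0.27 (SE, adjusted p = 0.0323), and lower in calcium versus control, at -2.04 ± 0.26 (SE, adjusted p = 0.0155). It was at 30.3 ± 11.2 FPKM in control, 6.99 ± 0.592 in calcium and 15.3 ± 5.09 in DES with calcium, and the last was called higher than calcium, at 1.07 ± 0.27 (SE, adjusted p = 0.0235). DNMT1 was at 25.9 ± 5.91 FPKM in control, 11.7 ± 1.76 in calcium, 26.2 ± 2.06 in DES and 25.8 ± 5.42 in DES with calcium. It was called lower in calcium versus control, at -1.12 ± 0.20 (SE, adjusted p = 0.032), and higher in DES with calcium versus calcium, at 1.12 ± 0.21 (SE, adjusted p = 0.00916).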

How the data were processed

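RNA-seq was performed in 21 libraries of MDA-MB-453 cells (polyadenylated RNA, paired-end reads). Per the labels, the submitters' processing notes name HISAT2 2.0.5, featureCounts 1.5.0-p3 and the build GRCh38.p14. The FPKM values per gene and library were deposited by the authors, who set the library sizes, and the replicates were not pooled. The methods and labels differ on whether the libraries kept strand, so overlapping genes are uncertain. Whole fragments were recovered from the FPKM values within a tolerance of 0.01, and 14686 genes with a mean of at least 0.5 FPKM were tested. Each comparison was fitted on its own groups with limma 3.58.1 in R 4.3.3 on log2(FPKM + 0.1), with Benjamini-Hochberg adjustment at 0.05, and interactions on the 4 groups involved. The procedure was tested on simulated data, where 91.0% of 200 genes changed 4-fold were recovered in DES versus control and 84.0% in DES with cadmium versus cadmium. The simulated folds were set on fragment counts, in genes that were not among the lowest and with a common spread for all genes. Recovery was therefore not measured for the lowest genes or with the spread between the real libraries. Low genes have few fragments and less precise values.

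Tables were handled in Python 3.11.15. Finger counts and the KRAB pattern were read from the longest reading frame of the canonical GENCODE 44 transcript, which held all 177 genes, and positions are those of the deposited table. Promoters were those of RefSeq. Domains in divergent proteins can be missed by the pattern. The members and gene lists were chosen with earlier results of these data known. Genes were named by rule: the 3 called genes with the largest rise and fall in each comparison with a mean of at least 1 FPKM, the 5 highest genes, the 2 genes on each side of the limit, 7 genes with known roles, the first 10 of those called with one sign in all 3 comparisons of DES with its matching group, and the corepressor list. Same-numbered libraries deviated together in both comparisons of DES and a metal with DES, with every correlation of their deviations above 0.1 (0.132, 0.103 and 0.280 with calcium and 0.472, 0.121 and 0.313 with cadmium), and pairing there comes from the data, not from the labels. Alternatives were a pseudocount of 1, no filter, median-ratio scaling, scaling by total fragments, all 7 groups in one fit, limma-voom on the recovered fragments, a block for the replicate number and leaving out each library.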

Additional observations from a re-analysis of the deposited data

Results flagged for a closer look

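ZNF333 differed between DES-treated and untreated cells in its response to cadmium, by the test of the interaction itself. The interaction was -2.51 on the log2 scale (adjusted p = 0.0361 in limma over all 14686 genes, 3 libraries in each of 4 groups). All 3 cadmium libraries were above all 3 control libraries, and all 3 libraries of DES with cadmium were below all 3 of DES alone. The value was between -2.76 and -2.27 when any 1 of the 12 libraries was left out, and the gene was called in 4 of these 12 fits. It was not called when low genes were kept in the test. Cadmium and its medium cannot be told apart.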

How the results depend on the processing

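The median log2 fold change of the 177 genes was negative in DES versus control, DES with calcium versus calcium, DES with cadmium versus cadmium and both comparisons of DES and a metal with DES under every alternative that gave a median. Scaling by total fragments shifted the median of all genes by over 0.1 in 6 of the comparisons, to -0.13 in calcium versus control, -0.12 in DES versus control, -0.13 and -0.24 in DES with calcium and with cadmium versus DES, -0.20 in DES with calcium versus calcium and -0.39 in DES with cadmium versus cadmium, while the median of the 177 less that of all genes moved little in DES versus control (-0.42, from -0.43). In DES with cadmium versus cadmium the median of the 177 was -0.60 with a pseudocount of 1 and -1.38 with total fragments. Under no filter on low values, which tests more genes, calls among the 177 numbered 0 in calcium versus control, 24 in DES versus control, 19 in DES with calcium versus calcium and 1 in DES with cadmium versus cadmium. With the replicate block they numbered 0, 22, 34 and 0 in these 4 comparisons, and the same-numbered libraries of these comparisons did not all deviate together. The block gave 4 calls for the interaction of cadmium, whose same-numbered libraries deviated together between DES and DES with cadmium but not between all of its groups. The block changed no call in the comparisons of DES and a metal with DES. All 7 groups in one fit called 7 in cadmium versus control, 5 and 14 in DES with calcium and with cadmium versus DES, 108 in DES with cadmium versus cadmium and 14 for the interaction of cadmium. Limma-voom called 7 in calcium versus control, 3 in cadmium versus control and 1 for the interaction of calcium. Total fragments gave 0 in calcium versus control and 3 for the interaction of cadmium, and a pseudocount of 1 gave 5 for the latter. The cause of these changes was not tested.

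Leaving out 1 library gave 0 to 1 calls in calcium versus control, 0 to 9 in cadmium versus control, 11 to 60 in DES versus control, 26 to 35 in DES with calcium versus calcium, 0 to 19 in DES with cadmium versus cadmium, 0 to 2 and 0 to 4 for the interactions of calcium and cadmium, and 0 in the others. The medians then ranged from -0.22 to -0.07, 0.03 to 0.14, -0.01 to 0.11 (GSK4716 versus control), -0.52 to -0.21, -0.49 to -0.26 (DES with calcium versus DES), -0.65 to -0.34 (DES with cadmium versus DES), -0.64 to -0.39 and -1.10 to -0.88, in the order above. Of 552 refits of the 42 named genes and comparisons, 400 kept the call, 152 lost it and 0 changed sign. Depth limits the lowest genes, with 66 to 88 fragments per gene in the median in DES with cadmium.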
